A study of Macaca fascicularis with 21 samples.

Results

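The WNT and FGF genes encode growth factors through which neighbouring cells of an embryo signal to each other, and their messenger RNA was followed here through cynomolgus monkey (Macaca fascicularis) embryos grown in a dish past the blastocyst stage. Genes were chosen by name alone, as every row of the count table called WNT or FGF plus a number, with A or B allowed after a WNT number. This rule gave 39 of 30792 rows, 18 WNT and 21 FGF genes. WNT9A and FGF13 lie outside the rule because the table stores them under numbered identifiers.

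The study collected 21 embryos at days 11, 12, 13, 14, 16 and 17, with 2, 5, 3, 4, 4 and 3 embryos. All were blastocysts with the zona pellucida digested off, each kept in its own well on Matrigel, a basement membrane gel, in serum medium, and none is labelled as mutant or drug-treated. Extra-embryonic tissue was trimmed away under a microscope before digestion, so the trophoblast and extraembryonic cells in the data are those left after this trimming. Single cells were picked by hand and their mRNA was read at the 3' end. For 16 embryos the labels give the day as a developmental stage and for 5 as a culture stage, and no label says whether both count from the same start.

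WNT proteins are secreted with a lipid attached by PORCN and carried to the surface by WLS. They bind Frizzled receptors, with LRP5 or LRP6 in the branch that stabilises beta-catenin and with partners such as ROR2 in branches that steer cell movement. Most FGF proteins are secreted ligands of FGF receptor kinases and act through the ERK pathway, whereas FGF11, FGF12, FGF13 and FGF14 stay inside the cell and are not known as ligands of these receptors. In the mouse embryo Wnt3 is needed to form the primitive streak, Fgf4 from the inner cell mass sustains trophoblast stem cells, and Fgf8 is needed for cells to leave the streak.

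Counts were found for 38 of the 39 genes. FGF5, a marker of the post-implantation epiblast in the mouse, had 0 counts in all 1453 cells, which allows up to 0.0207 CPM, counts scaled to a total of 1e6. FGF6 and WNT10A had 1 count each, FGF16 had 2 and FGF22 had 3. The 39 genes together held 59072 counts, 0.0408% of the total, split into 29542 for WNT and 29530 for FGF genes. At least 1 of them was counted in 1408 cells (96.9%), with a median of 4 genes and at most 16 per cell. The most widely seen were FGF12 (780 cells), FGF1 (591 cells), WNT3A (514 cells), WNT2 (472 cells), FGF7 (466 cells) and WNT7A (417 cells). In each set 8 genes were seen in 100 cells or more, while 5 WNT and 9 FGF genes were seen in fewer than 30 cells.

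Each cell carried 1 of 12 labels assigned by the authors, merged here into 7 families. They are read as gastrulating cells (Gast, 83 cells), amnion (AM, 82 cells), primordial germ cells (PGC, 18 cells), visceral or yolk sac endoderm (VE/YE, 101 cells), extraembryonic mesenchyme (EXMC, 485 cells), trophoblast and derivatives (TE, 380 cells) and epiblast (EPI, 304 cells). Median totals per cell ran from 40104 counts in PGC to 69067.5 in TE, embryos held 22 to 88 cells, and embryo totals ran from 2540816 to 11857191 counts. The defining markers were highest in their own family for 6 of 6 genes in EXMC and VE/YE, 5 of 5 in PGC, 5 of 6 in TE, 3 of 6 in AM and EPI, and 1 of 6 (MESP1) in Gast, so the Gast label is the least backed by these markers. The labels were made from the same counts, and a gene that differs between families is therefore not independent of how the cells were named.

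Counts were summed per embryo and family wherever at least 5 cells were present, which gave 6 Gast, 6 AM, 3 PGC, 9 VE/YE, 19 EXMC, 16 TE and 14 EPI sums, and are given as CPM scaled by the trimmed mean of M values. Differences from EPI are log2 values ± standard error with the embryo as a block, and adjusted p-values are from edgeR's quasi-likelihood test with Benjamini-Hochberg adjustment over all genes tested. A gene was called at an adjusted p under 0.05. In a sum, a smaller share of expressing cells and less RNA per cell cannot be told apart. Levels are compared between families for 1 gene, never between genes.

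**Figure D1:**
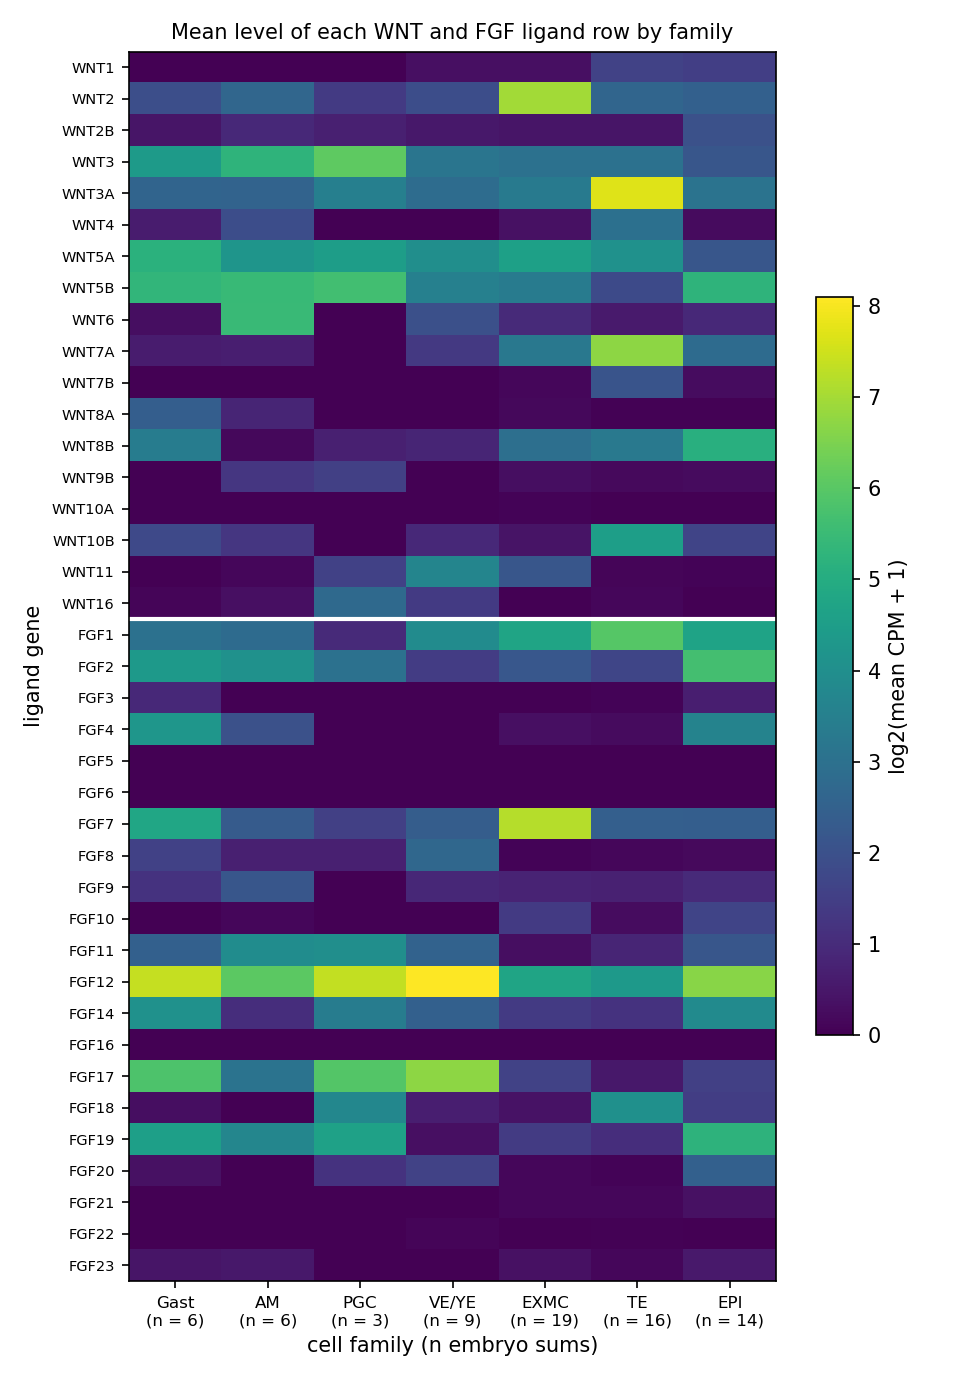
Mean level of each WNT and FGF gene in the 7 cell families, shown by colour as log2(mean CPM + 1) over embryo sums, with genes in rows and families in columns. WNT3A and WNT7A stand out in TE, WNT2 and FGF7 in EXMC, and WNT6 in AM. FGF17 has its highest mean in VE/YE (105 CPM, next PGC at 60.5 CPM), as does FGF12 (272 CPM, next Gast at 166 CPM). EPI has the highest mean of FGF2 (50.4 CPM, next Gast at 19.6 CPM) and FGF19 (36.9 CPM, next PGC at 23.5 CPM).

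Of the 39 genes, 23 had enough counts to be tested in at least 1 comparison and 22 were called in at least 1. The 16 left untested in these main fits were FGF3, FGF5, FGF6, FGF8, FGF10, FGF16, FGF20, FGF21, FGF22, FGF23, WNT2B, WNT7B, WNT8A, WNT9B, WNT10A and WNT16. Some of them were tested and called in other settings, with no filter on low counts or with fewer days. A gene could enter the test through the family in which it is high, so counts over the 23 describe and support nothing. Against EPI, 2 of the 23 were called in Gast, both higher, where 1.84% of 16253 genes were called (1.39% higher and 0.449% lower). In AM 6 of 23 were called, 5 higher and 1 lower, beside 6.24% of all genes (3.62% higher, 2.61% lower). In VE/YE 7 of 23 were called, 4 higher and 3 lower, beside 26.5% (10.2% higher, 16.3% lower).

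EXMC had 11 of 23 called, 4 higher and 7 lower, beside 30.6% of all genes (14.9% higher, 15.7% lower). TE had 12 of 23, 6 in each direction, beside 41.8% (20.5% higher, 21.3% lower). The median log2 difference of the tested members was -0.28 in Gast, 0.50 in AM, -0.59 in VE/YE, -0.40 in EXMC and 0.15 in TE. Over all genes the medians were -0.15, -0.18, -0.24, -0.04 and -0.05 in the same order.

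Among the WNT genes, TE was marked by WNT3A and WNT7A, both activators of the beta-catenin branch in many tissues. WNT3A sums in TE ran from 0 to 421 CPM with a median of 181 CPM, against 0 to 23.7 CPM with a median of 5.02 CPM in EPI. Apart from 1 TE sum at 0 (day 17 replicate 3), TE lay above EPI throughout. The difference was 4.67 ± 0.47 (adjusted p = 1.67e-10), with TE higher in 10 of 10 embryos that had both sums. WNT7A, an epithelial ligand known from limb and reproductive tract, ran from 40.3 to 192 CPM in TE with a median of 95.2 CPM, against 0 to 33.4 CPM with a median of 2.65 CPM in EPI. Its TE and EPI ranges did not overlap, while the highest EXMC sum (57.1 CPM) reached into the TE range. The difference was 4.31 ± 0.46 (adjusted p = 1.45e-09), with TE higher in 10 of 10 embryos.

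Seen cell by cell, WNT3A was counted in 80.8% of TE cells (95% exact interval 76.5% to 84.6%) and in 26.3% of EPI cells (21.5% to 31.6%). With every cell thinned to 20000 counts the shares were 73.1% of 316 TE cells and 10.9% of 247 EPI cells. The intervals cover counting error only, since cells of 1 embryo are not independent and PCR copies may not be. WNT3A and WNT7A were both counted in 162 of these 316 thinned TE cells, and 151 would hold both if the genes were unrelated.

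WNT10B, a ligand known from fat and bone precursors, ran from 0 to 76.9 CPM in TE with a median of 12.8 CPM, against 0 to 10.9 CPM with a median of 0 CPM in EPI. The ranges overlapped at the low end. The difference was 3.66 ± 0.82 (adjusted p = 5.00e-04), with TE higher in 8 of 10 embryos. WNT4, which patterns kidney and gonad in the mouse, had 136 counts in TE sums and 3 in EPI sums, a ratio of 31.4 (95% exact counting interval 10.5 to 154). TE was higher in 8 of 10 embryos (adjusted p = 1.35e-04). WNT7B, which the mouse needs to join chorion and allantois, was too low for the main fit. It ran from 0 to 18.1 CPM in TE, with at most 1.29 CPM in any EPI sum and 1.49 CPM in any EXMC sum. In other settings edgeR called it higher in TE without day 16 (3.49, adjusted p = 0.00878) and on days 11 to 14 (3.70, adjusted p = 0.00642). With no filter on low counts it was called as well (3.28, adjusted p = 0.0465).

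EXMC was marked by WNT2, a ligand whose loss in the mouse disturbs placental vessels. WNT2 ran from 29.0 to 226 CPM in EXMC with a median of 126 CPM, against 0 to 31.1 CPM with a median of 0.740 CPM in EPI. EXMC and EPI met only at their ends. The difference was 5.41 ± 0.59 (adjusted p = 5.06e-09), with EXMC higher in 13 of 13 embryos. WNT2 was counted in 72.2% of EXMC cells and 9.21% of EPI cells, or 66.2% and 2.43% after thinning.

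WNT11, a ligand of the movement branch in frog and fish gastrulation, was called in VE/YE and EXMC. In VE/YE it ran from 0 to 30.2 CPM with a median of 11.4 CPM, in EXMC from 0 to 12.0 CPM with a median of 1.49 CPM, and in EPI it did not pass 0.673 CPM. Its 71 VE/YE counts against 1 EPI count gave a ratio of 317 (counting interval 55.1 to 12708), with VE/YE higher in 6 of 7 embryos and 1 equal (adjusted p = 2.59e-07). For EXMC, 203 counts against 1 gave a ratio of 128 (22.7 to 5073), with EXMC higher in 9 of 13 embryos and 4 equal (adjusted p = 3.64e-05). Both wide intervals come from the single EPI count.

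AM was marked by WNT6, a ligand of surface epithelia. Its 6 AM sums were 132 and 51.7 CPM at day 12 and 5.76, 17.4, 47.9 and 7.60 CPM at day 16, with a median of 32.6 CPM, against 0 to 10.1 CPM with a median of 0 CPM in EPI. The 2 lowest AM sums fell inside the EPI range. The difference was 6.26 ± 1.20 (adjusted p = 4.99e-04), with AM higher in 6 of 6 embryos. DESeq2 gave 6.38 with an adjusted p of 0.0536, and the day 16 and 17 embryos alone gave 4.99 (edgeR adjusted p = 0.136). WNT6 was counted in 32.9% of AM cells.

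WNT3, the streak-forming ligand of the mouse, was 89.3 and 70.2 CPM at day 12 and 24.2, 16.6, 20.2 and 5.07 CPM at day 16 in AM, against 0 to 18.3 CPM with a median of 0.609 CPM in EPI. The day 12 sums were the high ones and 2 of the day 16 sums lay inside the EPI range. The difference was 3.74 ± 0.87 (adjusted p = 0.00900), with AM higher in 5 of 6 embryos, and the call was lost without day 12 replicate 1 or 2 (3.10 to 3.31, adjusted p = 0.0512 to 0.0596). The 3 PGC sums, all of day 16, held 91.6, 30.8 and 80.2 CPM of WNT3, above every EPI sum. PGC had too few sums for a comparison of its own. In Gast, WNT3 was 1.45 to 2.51 CPM at day 14 and 2.68 to 79.2 CPM at day 16. The Gast difference of 2.71 ± 0.87 missed the threshold (edgeR adjusted p = 0.139). It passed with DESeq2 (2.91, adjusted p = 0.0299) and in edgeR with no filter on low counts (2.69, adjusted p = 0.0341). WNT4 rose in AM as well, with 15 counts in AM sums against 3 in EPI sums, a ratio of 26.1 (counting interval 7.39 to 141). AM was higher in 4 of 6 embryos and equal in 2 (adjusted p = 0.00874), and the call was lost without day 16 replicate 4 (adjusted p = 0.0544).

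The trophoblast marker list moved with the AM label. All 6 of its genes had counts in AM, where their summed level ran from 1300 to 3421 CPM, against 81.3 to 3771 CPM in EPI and 1759 to 24339 CPM in TE. GATA3 stands in both the AM and the TE list, and averaged 200 CPM in AM. KRT18 of the TE list averaged 1898 CPM in AM, above its mean of 1259 CPM in TE. The summed level in AM is therefore no measure of trophoblast RNA alone. The part of these transcripts in the AM results was not tested.

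WNT5A, the main ligand of the movement branch and needed to lengthen the mouse body axis, was the member called against EPI in every family tested. In Gast it was 0 and 6.71 CPM at day 14 and 10.3, 11.7, 49.6 and 131 CPM at day 16, in AM 6.16 and 33.3 CPM at day 12 and 23.6, 17.4, 23.9 and 2.53 CPM at day 16, and in EPI 0.232 to 17.5 CPM with a median of 1.58 CPM. Medians were 6.66 CPM in VE/YE, 18.2 CPM in EXMC and 5.55 CPM in TE. Every family's range overlapped that of EPI.

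The WNT5A differences from EPI were 3.84 ± 0.81 in Gast (adjusted p = 0.00472; 5 of 6 embryos higher) and 2.87 ± 0.82 in AM (adjusted p = 0.0213; 5 of 6). They were 2.74 ± 0.74 in VE/YE (adjusted p = 0.00581; 6 of 7), 3.05 ± 0.60 in EXMC (adjusted p = 1.59e-04; 12 of 13) and 2.32 ± 0.65 in TE (adjusted p = 0.00503; 7 of 10). The Gast call was lost without day 16 replicate 4 (2.90, adjusted p = 0.125), the VE/YE call without day 16 replicate 2 (2.02, adjusted p = 0.0582), and the AM call without day 16 replicate 1, 2 or 3 (2.66 to 2.74, adjusted p = 0.0643 to 0.0727). These 5 comparisons share the EPI sums.

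WNT5B, the closest relative of WNT5A, ran the other way in TE and EXMC. TE sums ran from 0 to 6.49 CPM with a median of 2.45 CPM, and EXMC sums from 0 to 30.2 CPM with a median of 5.52 CPM, against 0.498 to 129 CPM with a median of 22.0 CPM in EPI. The ranges overlapped, and EPI itself varied widely by embryo and day. The difference was -3.52 ± 0.57 in TE (adjusted p = 1.35e-05), with TE lower in 10 of 10 embryos, and -1.68 ± 0.51 in EXMC (adjusted p = 0.0126), with EXMC lower in 11 of 13. On days 16 and 17 only, edgeR gave -1.29 in TE (adjusted p = 0.721) and -0.75 in EXMC (adjusted p = 0.788). WNT5B means over all days were 38.7 CPM in Gast, 42.8 CPM in AM, 48.9 CPM in PGC and 37.0 CPM in EPI. Neither the Gast nor the AM difference was called. These means cover unlike days in each family. At day 12 the mean was 99.2 CPM in AM and 75.4 CPM in EPI, and at day 14 it was 86.8 CPM in Gast and 15.6 CPM in EPI. Day 16 means were 14.7 CPM in Gast, 14.6 CPM in AM, 48.9 CPM in PGC and 16.2 CPM in EPI.

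WNT8A, a streak ligand of the mouse, was too sparse for the main fit. Its 6 Gast sums were 1.45 and 6.71 CPM at day 14 and 0, 0, 5.36 and 12.5 CPM at day 16, with at most 0.375 CPM in EPI. With no filter on low counts edgeR called WNT8A higher in Gast (4.75, adjusted p = 0.0442). WNT8B, known from the forebrain, had its highest mean in EPI at 33.1 ± 79.0 CPM (SD, n = 14), but 290 CPM came from 1 embryo of day 12. The rest of the WNT genes were low everywhere. WNT1 reached 24.1 CPM in 1 TE sum and 12.1 and 11.4 CPM in 2 day 17 EPI sums. WNT2B averaged 3.06 CPM in EPI, WNT16 averaged 5.78 CPM over the 3 PGC sums, and WNT9B and WNT10A averaged at most 1.91 and 0.0612 CPM in any family.

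**Figure D2:**
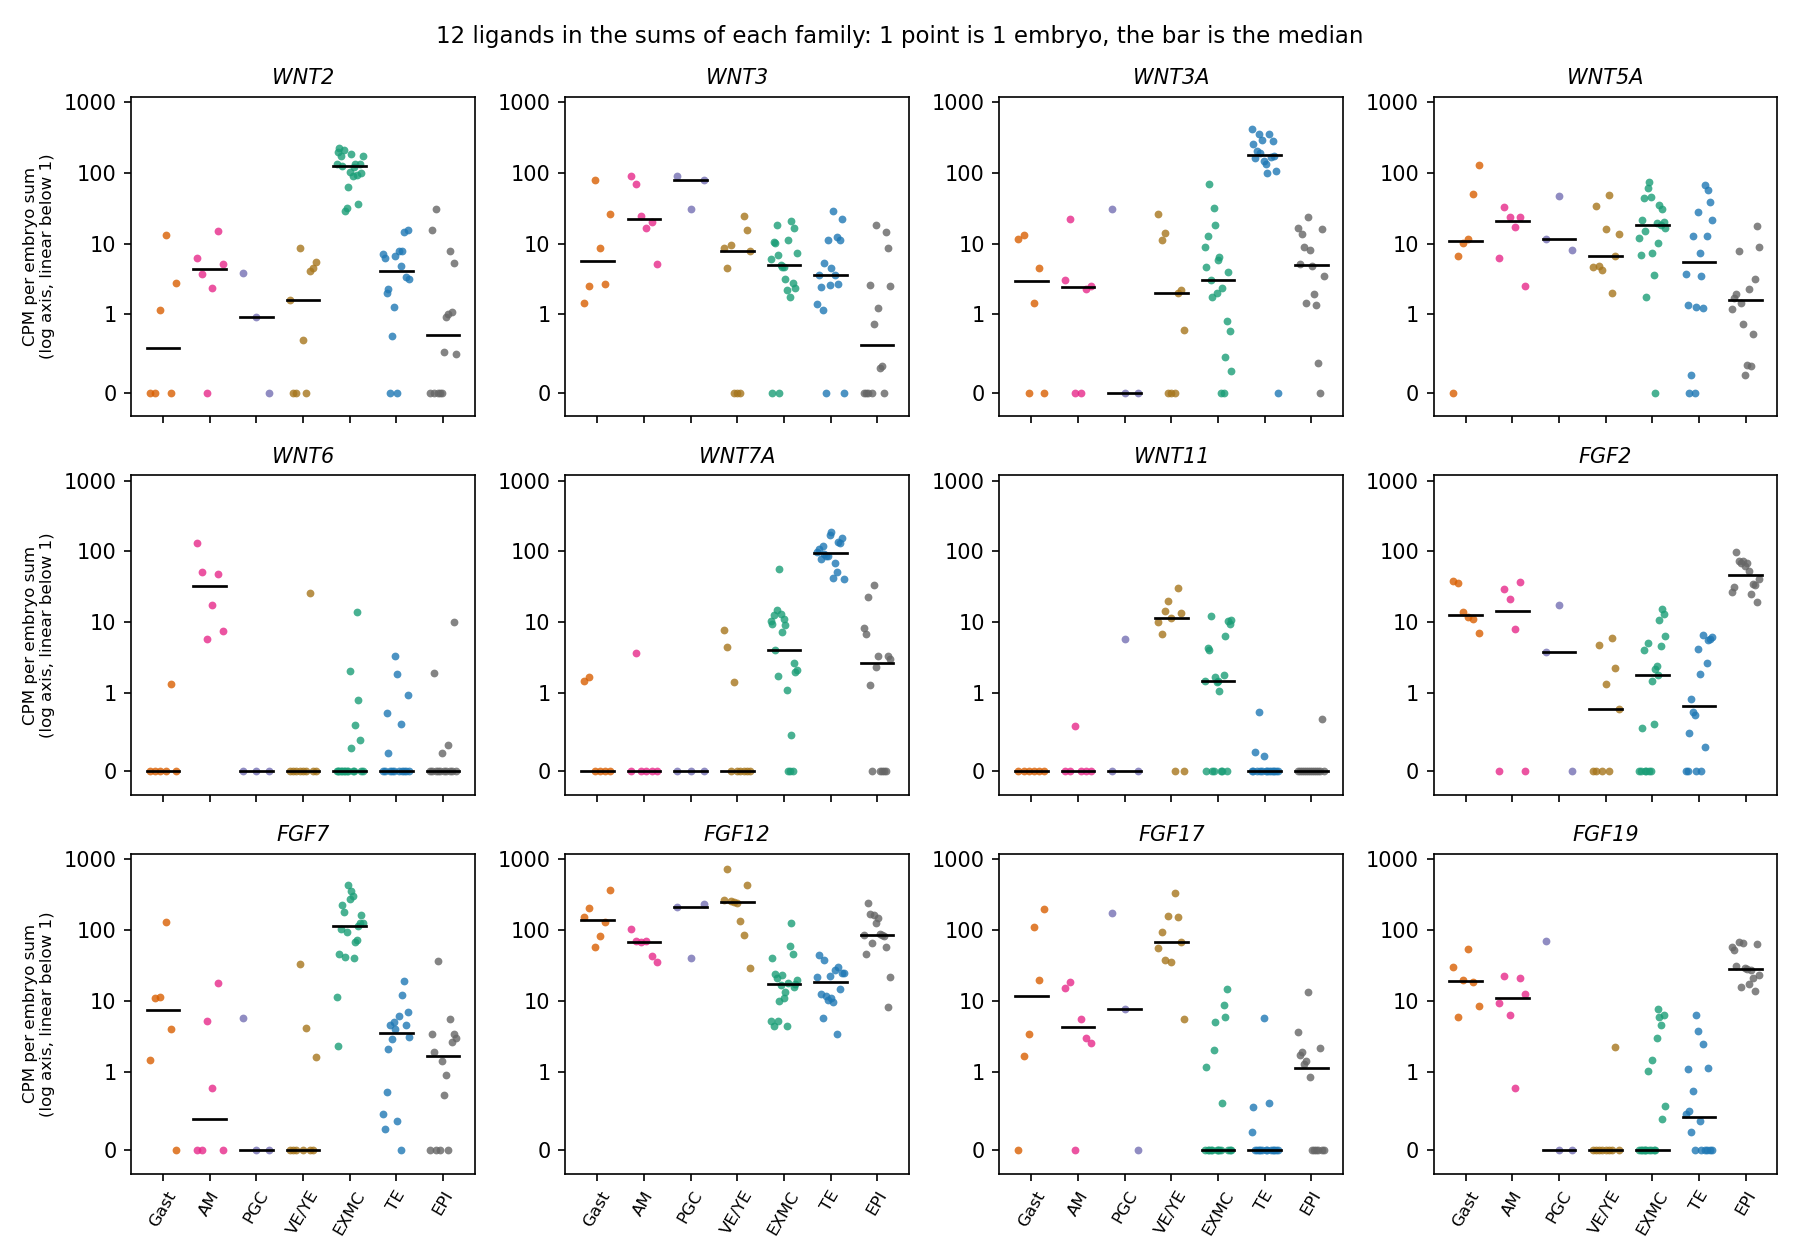
CPM of 12 ligands in every embryo sum, on a log axis that is linear below 1 CPM, by cell family with EPI at the right. Each point is 1 embryo and the bar is the median, and the TE and EPI points of WNT7A, FGF2 and FGF19 do not overlap.

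Among the FGF genes, FGF2 and FGF19 set EPI apart from VE/YE, EXMC and TE. FGF2, the basic FGF that keeps primate pluripotent cells in culture, ran from 0 to 6.04 CPM in VE/YE, 0 to 15.2 CPM in EXMC and 0 to 6.64 CPM in TE, against 19.5 to 97.8 CPM with a median of 46.2 CPM in EPI. The lowest EPI sum was above the highest sum of those 3 families. FGF2 was lower by -5.24 ± 0.86 in VE/YE (adjusted p = 1.71e-06; 7 of 7 embryos), -4.25 ± 0.50 in EXMC (adjusted p = 6.79e-09; 13 of 13) and -5.25 ± 0.54 in TE (adjusted p = 1.31e-10; 10 of 10).

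In Gast and AM the FGF2 differences of -2.03 and -2.18 missed the threshold (edgeR adjusted p = 0.139 and 0.0567). Both passed with DESeq2 (adjusted p = 0.0422 in Gast and 0.0191 in AM) and with limma (0.00793 and 1.21e-05). In AM edgeR also called FGF2 with sums of at least 3 cells (adjusted p = 0.00512) and without any 1 of 3 embryos (0.0368 to 0.0499). Gast sums were 37.8 and 36.0 CPM at day 14 and 13.8, 11.7, 11.2 and 6.95 CPM at day 16, so the day 14 sums lay inside the EPI range and the day 16 sums below it. FGF2 was counted in 60.2% of EPI cells and in 10.3% of TE cells, or 44.9% and 4.43% after thinning.

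FGF19, the hormone-like FGF whose mouse counterpart is Fgf15, ran from 0 to 2.22 CPM in VE/YE, 0 to 7.69 CPM in EXMC and 0 to 6.33 CPM in TE, against 13.8 to 68.6 CPM with a median of 28.5 CPM in EPI. None of the 3 ranges overlapped that of EPI. The difference was -4.55 ± 0.63 in EXMC (adjusted p = 2.75e-07; 13 of 13 embryos lower) and -5.41 ± 0.69 in TE (adjusted p = 3.15e-08; 10 of 10). In VE/YE 1 count stood against 881 in EPI, a ratio of 0.00507 (counting interval 1.28e-04 to 0.0283), with VE/YE lower in 7 of 7 embryos (adjusted p = 3.65e-06). Gast sums of FGF19 ran from 5.87 to 30.5 CPM at day 14 and 8.34 to 54.1 CPM at day 16, and AM sums from 0.791 to 22.2 CPM. Both overlapped EPI, and edgeR called neither difference (-1.35 and -1.87, adjusted p = 0.481 and 0.203). Limma called AM lower (-2.35, adjusted p = 7.00e-06). The 3 PGC sums, not tested, were 70.6, 0 and 0 CPM.

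FGF4, the trophoblast-sustaining ligand of the mouse, was sparser. It reached 3.76 CPM in EXMC and 1.92 CPM in TE, against 0 to 42.2 CPM with a median of 4.94 CPM in EPI. Several EPI sums were at or near 0 and so overlapped both. The difference was -5.93 ± 2.02 in EXMC (adjusted p = 3.28e-05), lower in 10 of 13 embryos and equal in 3, and -5.16 ± 1.15 in TE (adjusted p = 3.26e-04), lower in 8 of 10 and equal in 2. VE/YE held 0 counts against 203 in EPI, so FGF4 was at least 15.1-fold lower there, with the bound set at 3 counts over the summed VE/YE cells (adjusted p = 7.88e-04; 6 of 7 embryos lower, 1 equal). In Gast it was 26.2 and 2.51 CPM at day 14 and 0, 0, 0 and 80.6 CPM at day 16.

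In thinned EPI cells FGF2 and FGF19 were counted together in 42 of 247, where 39.5 would be if unrelated, and FGF2 and FGF4 in 15, where 10.3 would be. In the RefSeq annotation of assembly T2T-MFA8v1.1 no protein-coding gene lies between FGF3 and FGF4 or between FGF4 and FGF19. FGF3, the third gene of that row and an inner ear ligand, had 20 counts in all. The other neighbouring pairs among the 39 genes were WNT3 with WNT9B, WNT1 with WNT10B, WNT6 with WNT10A and FGF6 with FGF23.

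FGF7, a mesenchymal ligand that acts on epithelial FGFR2, was the FGF ligand of EXMC. It ran from 2.33 to 433 CPM in EXMC with a median of 115 CPM, against 0 to 37.1 CPM with a median of 1.65 CPM in EPI. The ranges overlapped through low EXMC embryos and 1 high EPI embryo. The difference was 4.97 ± 0.58 (adjusted p = 4.23e-08), with EXMC higher in 12 of 13 embryos. FGF7 was counted in 70.1% of EXMC cells and 11.8% of EPI cells. FGF7 and WNT2 were both counted in 160 of 382 thinned EXMC cells, against 155 if unrelated, while WNT2 and WNT5A were both counted in 45, against 51.7 if unrelated. FGF10, its relative, was too low for the main fits and reached 22.4 CPM in 1 EXMC sum and 18.9 CPM in 1 EPI sum.

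FGF17, a ligand of the FGF8 group, was called in VE/YE and Gast. Over 9 VE/YE sums it ran from 5.55 to 338 CPM with a median of 68.8 CPM, against 0 to 13.2 CPM with a median of 1.11 CPM in EPI. The VE/YE sum of day 17 alone fell inside the EPI range. The difference was 6.07 ± 0.87 (adjusted p = 4.74e-06), with VE/YE higher in 7 of 7 embryos. In Gast it was 0 and 1.68 CPM at day 14 and 3.44, 111, 19.7 and 197 CPM at day 16, so 3 day 16 embryos stood above EPI. The 3 PGC sums, which were not tested, held 174, 7.71 and 0 CPM, 1 of them above EPI.

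The Gast difference of FGF17 was 4.16 ± 0.97 (adjusted p = 0.0184), with Gast higher in 5 of 6 embryos. It was lost without any 1 of those 3 embryos (3.36 to 4.09, adjusted p = 0.059 to 0.136). Of the endoderm markers, 4 of 6 had counts in Gast, with FOXA1 and HNF4A at 0, and their summed level ran from 60.3 to 216 CPM, against 4689 to 19485 CPM in VE/YE itself. Their part in the Gast result was not tested. FGF8 was too sparse for the main fit. It reached 44.3 CPM in 1 VE/YE sum and 10.2 CPM in 1 Gast sum, with at most 1.76 CPM in EPI. With no filter on low counts edgeR called it higher in VE/YE (4.04, adjusted p = 0.0236).

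FGF18, the third ligand of the FGF8 group and known from cartilage and lung, was called in TE. It ran from 0 to 92.8 CPM in TE with a median of 3.33 CPM, against 0 to 12.0 CPM with a median of 0.492 CPM in EPI. The ranges overlapped, and the high TE sums were those of day 11. The difference was 3.68 ± 0.79 (adjusted p = 1.18e-04), with TE higher in 8 of 10 embryos and equal in 2. The 3 PGC sums of FGF18, not tested, were 28.6, 0.964 and 8.02 CPM, with a higher median (8.02 CPM) than TE. FGF9, known from lung and testis, was 3.08 and 14.8 CPM at day 12 and 0, 0, 2.99 and 0 CPM at day 16 in AM, against 0 to 8.75 CPM with a median of 0 CPM in EPI. Only the second day 12 embryo lay above EPI. The AM difference of 4.21 ± 1.72 (adjusted p = 0.0476) had 3 embryos higher and 3 equal. It was lost without any 1 of 9 embryos (adjusted p up to 0.205) and could not be tested without any 1 of 6 more.

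FGF1, acidic FGF, which binds each FGF receptor, averaged 60.5 ± 64.8 CPM in TE (SD, n = 16), 25.6 ± 25.8 CPM in EXMC (n = 19) and 24.7 ± 37.1 CPM in EPI (n = 14). No family differed from EPI at the threshold. Among the genes untested in the main fits, FGF20 reached 50.0 CPM in 1 EPI sum, with 57.8% of its 161 counts in 1 cell. FGF3, FGF21, FGF22 and FGF23 averaged under 1 CPM in every family, as did FGF6 and FGF16.

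Of the FGF genes whose proteins stay inside the cell, FGF12 and FGF14 were lower over all days in EXMC and TE and FGF11 in EXMC. The secreted FGF2, FGF4 and FGF19 were lower over all days in both families as well. FGF12, which binds sodium channels, was 29.3 to 740 CPM in VE/YE with a median of 253 CPM, 4.38 to 126 CPM in EXMC with a median of 17.2 CPM and 3.37 to 44.9 CPM in TE with a median of 18.2 CPM, against 8.08 to 243 CPM with a median of 85.2 CPM in EPI. All of these ranges overlapped. FGF12 means were 272 CPM in VE/YE, 166 CPM in Gast and 163 CPM in PGC. Gast did not differ from EPI at the threshold (edgeR adjusted p = 0.765), and PGC was not tested. FGF12 was higher than EPI by 1.32 ± 0.49 in VE/YE (adjusted p = 0.0476; 7 of 7 embryos), a call lost without any 1 of 11 embryos (adjusted p = 0.0554 to 0.141), and lower by -1.66 ± 0.40 in EXMC (adjusted p = 0.00262; 11 of 13) and -1.86 ± 0.43 in TE (adjusted p = 0.00144; 8 of 10). On days 16 and 17 only, edgeR gave -0.16 in EXMC (adjusted p = 0.895) and 0.45 in TE (adjusted p = 0.737).

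FGF14, of the same group, was 3.08 and 0 CPM at day 12 and 1.15, 1.58, 0.748 and 0 CPM at day 16 in AM, against 1.12 to 43.1 CPM with a median of 9.74 CPM in EPI. Medians were 1.16 CPM in EXMC and 0.345 CPM in TE, and each range overlapped that of EPI at its low end. The difference was -3.98 ± 1.21 in AM (adjusted p = 0.0467; 6 of 6 embryos lower; lost without any 1 of 8 embryos, adjusted p = 0.0518 to 0.0953), -2.42 ± 0.69 in EXMC (adjusted p = 0.0143; 12 of 13) and -3.01 ± 0.76 in TE (adjusted p = 0.00185; 10 of 10). The FGF14 call in EXMC was lost with developmental labels only (-1.82, edgeR adjusted p = 0.199). On days 16 and 17 only, edgeR gave -1.33 in EXMC (adjusted p = 0.612) and -6.66 in TE (adjusted p = 0.125) for FGF14. FGF11 reached 1.38 CPM in EXMC, against 0 to 14.2 CPM with a median of 0.946 CPM in EPI. Its difference was -3.10 ± 0.99 (adjusted p = 0.00170), with EXMC lower in 7 of 13 embryos and equal in 6. Limma gave -0.31 (adjusted p = 0.137), and days 16 and 17 only gave -2.87 (edgeR adjusted p = 0.0819). FGF11 averaged 14.2 CPM in AM and 15.0 CPM in PGC.

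**Figure D3:**
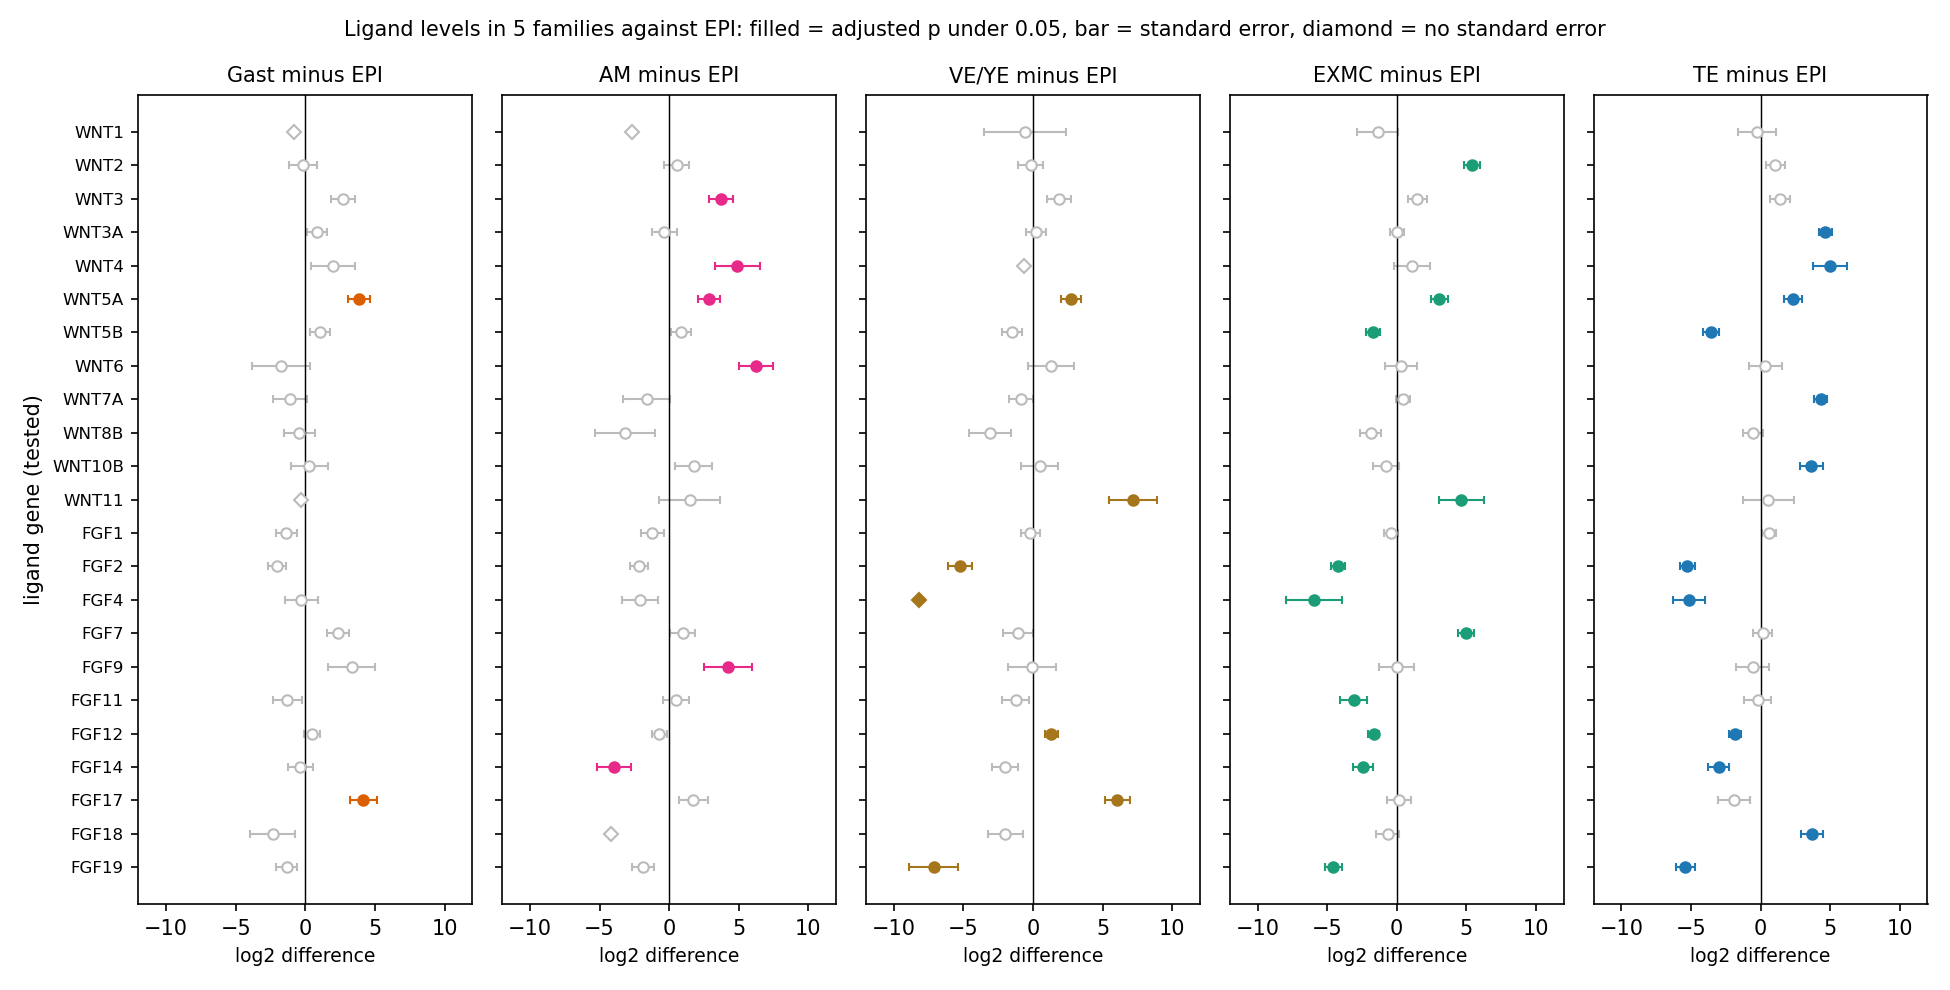
Log2 difference from EPI of each tested WNT and FGF gene in Gast, AM, VE/YE, EXMC and TE, from the edgeR fit, with filled marks for genes called at an adjusted p under 0.05, bars for the standard error and diamonds where none could be given. WNT5A is higher and called in every column, and FGF2 and FGF19 are lower and called in VE/YE, EXMC and TE.

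Within families the finer labels differed too, and these pooled CPM are descriptions with no test, because each label drew its cells from few embryos. In the gastrulating labels, FGF17 was 2.95 CPM in E-Gast (33 cells), 87.0 CPM in L-Gast1 (15 cells) and 39.0 CPM in L-Gast2 (35 cells). WNT5B ran 119, 18.4 and 16.2 CPM and FGF2 35.0, 37.6 and 1.86 CPM in the same order, whereas WNT5A was 6.74, 1.47 and 58.6 CPM. L-Gast2 was the label low in FGF2 and high in WNT5A.

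In the amnion labels, WNT6 was 34.5 CPM in E-AM (33 cells), 14.7 CPM in L-AM1 (22 cells) and 35.5 CPM in L-AM2 (27 cells). WNT3 was 62.5, 16.3 and 25.1 CPM, FGF2 was 3.83, 31.4 and 1.01 CPM and FGF11 was 0.425, 3.00 and 25.1 CPM in that order, so L-AM1 was the label nearest to EPI in FGF2. Of the epiblast labels, postL-EPI (134 cells) had less FGF2, FGF19, FGF4 and FGF1 than postE-EPI (170 cells). FGF2 was at 33.9 against 63.6 CPM and FGF19 at 24.6 against 35.8 CPM. FGF4 was at 1.74 against 11.0 CPM and FGF1 at 7.42 against 34.9 CPM. Not every FGF gene was lower in late epiblast. In EPI sums, FGF3 averaged 0 CPM at day 11 and 4.29 CPM at day 17. FGF20 averaged 0 CPM at day 11, 13.0 CPM at day 16 and 0.673 CPM at day 17. With no filter on low counts, edgeR called the sparse FGF3 (1.51 per day, adjusted p = 0.00986) and FGF21 (1.08, adjusted p = 0.0268) higher with day in EPI.

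The second question was how the ligands changed with day. Day was fitted as a numeric term, which puts every change on a log2 scale per day, and EPI, EXMC and TE were also fitted alone. In EPI 1 of 9 tested members was called, lower, beside 3.81% of 11589 genes (1.94% higher, 1.87% lower). In EXMC 2 of 8 were called, both lower, beside 11.8% of 11056 (7.15% higher, 4.64% lower). In TE 5 of 13 were called, 3 higher and 2 lower, beside 14.9% of 12205 (8.07% higher, 6.78% lower). In all cells 4 of 20 were called, all lower, beside 21.9% of 15924 (11.4% higher, 10.5% lower).

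TE had both rising and falling ligands. FGF1 in TE was 24.9 and 21.2 CPM at day 11, 19.9, 12.7, 5.27, 5.78 and 11.4 CPM at day 12, 32.1 and 31.9 CPM at day 13, 63.6, 39.8, 159 and 51.0 CPM at day 14, and 153, 213 and 124 CPM at day 17. The lowest day 14 sum lay above each earlier one, and the day 17 sums were among the highest. The change was 0.65 ± 0.10 per day (adjusted p = 3.35e-04), and without day 17 it was 0.80 (adjusted p = 0.0872).

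WNT4 in TE was 3.46 and 1.09 CPM at day 11, 0, 0.230, 0, 0 and 0 CPM at day 12, 0.197 and 0.370 CPM at day 13, 1.74, 11.5, 2.75 and 8.06 CPM at day 14, and 38.4, 21.5 and 21.7 CPM at day 17. All 3 day 17 sums were above every earlier sum. It rose by 0.86 ± 0.22 per day (adjusted p = 0.00519). Day 17 replicates 1 and 2 carry a culture stage label. The change was 0.75 with developmental labels only and 0.85 with sums of at least 10 cells, and neither passed the threshold. FGF2 in TE was 0 at day 11, at most 0.921 CPM at day 12, 4.13 and 1.85 CPM at day 13, 0, 6.64, 0.306 and 2.69 CPM at day 14, and 5.65, 5.86 and 6.20 CPM at day 17. It rose by 0.71 ± 0.21 per day (adjusted p = 0.0388), a call lost without any 1 of 6 embryos (adjusted p = 0.0520 to 0.0864) and untestable without any 1 of 8.

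The ligands that fell in TE were WNT10B and FGF18. WNT10B was 76.9 and 49.6 CPM at day 11, 46.5, 15.9, 9.79, 47.7 and 3.80 CPM at day 12, 3.35 and 2.59 CPM at day 13, 18.3, 32.0, 2.14 and 43.0 CPM at day 14, and 0, 0.977 and 0 CPM at day 17. FGF18 was 59.2 and 92.8 CPM at day 11, 4.43, 24.4, 9.79, 2.17 and 1.27 CPM at day 12, 0.984 and 2.22 CPM at day 13, 0, 26.0, 4.90 and 25.3 CPM at day 14, and 0 in the 3 sums of day 17. For both genes day 11 was high, days 12 to 14 were mixed and day 17 was at or near 0. The changes were -0.72 ± 0.22 for WNT10B (adjusted p = 0.0389) and -0.85 ± 0.31 for FGF18 (adjusted p = 0.0390), calls lost without any 1 of 7 embryos for WNT10B (adjusted p = 0.0532 to 0.113) and of 6 for FGF18 (adjusted p = 0.0546 to 0.124).

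WNT3A and WNT7A, the TE ligands with most counts, did not pass in TE, with -0.25 ± 0.11 (adjusted p = 0.163) and 0.02 ± 0.08 (adjusted p = 0.862) per day. No TE sum came from day 16, where 3 TE cells were picked. Without day 17 edgeR called 0 of 13 members in TE, 4 of which had an unadjusted p under 0.05, and WNT4 and FGF2 were too low to be tested. The day 17 TE sums also differed in other genes. The TE marker list had counts for 6 of 6 genes at each day and summed to 1759 to 2041 CPM at day 17, against 9156 to 23235 CPM at day 14, and the EXMC list, again 6 of 6, summed to 512 to 1683 CPM at day 17, against 36.2 to 790 CPM at day 14. EXMC itself had 12343 to 16112 CPM of that list at day 17. The part of these transcripts in the TE changes was not tested.

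In sums of all cells, FGF18 fell by 0.96 per day (SE 0.20, adjusted p = 8.79e-04), WNT3A by 0.77 (SE 0.16, adjusted p = 0.00374), WNT10B by 0.79 (SE 0.19, adjusted p = 0.00516) and WNT8B by 0.94 (SE 0.25, adjusted p = 0.0330). WNT3A was 224 and 159 CPM at day 11, against 1.07, 2.78, 1.54 and 0.558 CPM at day 16 and 26.1, 17.3 and 0.311 CPM at day 17. The number of TE cells moved with these values, at 356 over days 11 to 14, 3 at day 16 and 21 at day 17. WNT8B was highest in 1 day 12 embryo, and its call was lost without any 1 of 8 embryos (adjusted p = 0.0503 to 0.0945).

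WNT5B fell in the epiblast. EPI sums were 35.9 and 129 CPM at day 11, 97.8, 85.5 and 42.8 CPM at day 12, 24.6 CPM at day 13, 11.8 and 19.5 CPM at day 14, 5.76, 51.4, 1.87 and 5.85 CPM at day 16, and 6.06 and 0.498 CPM at day 17. All sums of days 11 and 12 were above all later ones, with the exception of 1 day 16 embryo at 51.4 CPM. The change was -0.62 ± 0.15 per day (adjusted p = 0.0319), a call lost without any 1 of 6 embryos (adjusted p = 0.0534 to 0.0887). FGF4 and FGF1 in EPI had changes of -0.86 ± 0.21 (adjusted p = 0.0507) and -0.52 ± 0.15 (adjusted p = 0.105). Other settings called both lower with day. FGF4 passed with DESeq2 (adjusted p = 6.10e-04) and limma (0.00603). In edgeR it passed with no filter on low counts (0.0371) and with RLE size factors in place of the trimmed mean (0.0484). FGF1 passed with DESeq2 (0.0095) and in edgeR with sums of at least 3 cells (0.0343).

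In EXMC, WNT7A was 10.4 and 9.31 CPM at day 11, 12.6, 4.04, 15.0 and 1.72 CPM at day 12, 57.1, 13.3 and 7.23 CPM at day 13, 11.1, 9.09 and 1.09 CPM at day 14, 0, 0, 0.460 and 0 CPM at day 16, and 2.61, 1.96 and 2.12 CPM at day 17. Day 16 lay below every other day. The change was -0.68 ± 0.18 per day (adjusted p = 0.0319), and WNT5B changed by -0.50 ± 0.16 (adjusted p = 0.0425). Leaving out day 16 replicate 2 or 3 or day 17 replicate 2 or 3 ended the WNT7A call (adjusted p = 0.0508 to 0.0551), and any 1 of 13 embryos ended that of WNT5B (adjusted p = 0.0502 to 0.108).

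The TE marker list in EXMC moved the same way as WNT7A there, with counts for 6 of 6 genes and a summed level of 1707 to 1863 CPM at day 11, 213 to 374 CPM at day 16 and 570 to 1173 CPM at day 17. Its part in the WNT7A change was not tested. WNT2 and FGF7, the ligands that set EXMC apart, had changes of -0.10 ± 0.08 (adjusted p = 0.398) and -0.01 ± 0.15 (adjusted p = 0.979).

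**Figure D4:**
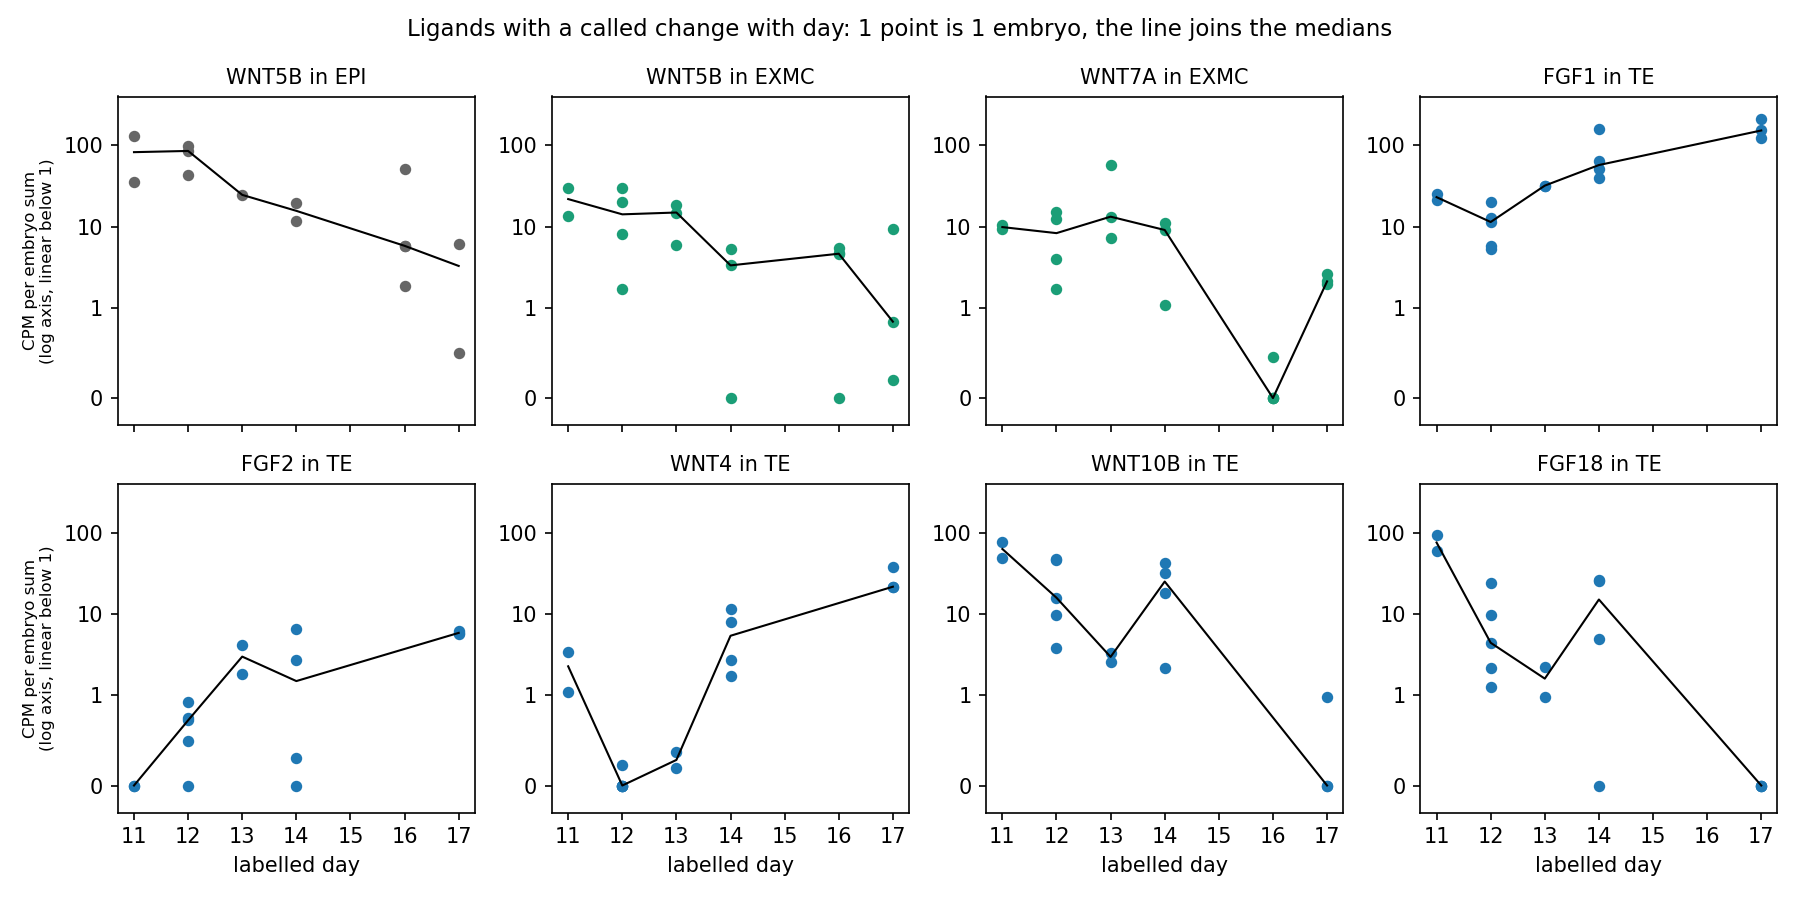
CPM by labelled day for the members called with day within EPI, EXMC or TE, on a log axis that is linear below 1 CPM, with 1 point per embryo and a line through the medians of the days. In TE the day 17 points of WNT4 lie above all earlier ones, and those of WNT10B and FGF18 lie at or near 0.

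Whether the change with day differed between EXMC, TE and EPI was tested in 1 fit with the embryo as a block. Of 13 members tested, 2 were called, FGF2 and FGF19, beside 8.34% of 12158 genes. In EXMC, FGF2 did not pass 5.01 CPM up to day 14 and was 15.2, 12.9 and 6.35 CPM at day 17. In EPI it was 26.3 and 31.0 CPM at day 11, 97.8, 73.8 and 68.6 CPM at day 12, 72.9 CPM at day 13, 61.6 and 69.2 CPM at day 14, 52.1, 24.9, 34.1 and 33.5 CPM at day 16, and 19.5 and 40.3 CPM at day 17. The slope of FGF2 was 0.98 higher in EXMC than in EPI and 0.94 higher in TE than in EPI (adjusted p = 9.19e-04). The FGF2 call was lost with developmental labels only (edgeR adjusted p = 0.128).

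FGF19 in EXMC was 0 at days 11 and 12, at most 1.00 CPM at day 13 and 1.46 CPM at day 14, then 2.98, 7.69, 5.98 and 4.54 CPM at day 16 and 0.401, 6.27 and 0.564 CPM at day 17. In EPI it was 58.7 and 51.7 CPM at day 11, 15.7 to 68.6 CPM at day 12 and 66.7 CPM at day 13. Day 14 held 28.0 and 28.9 CPM, day 16 held 13.8 to 27.6 CPM and day 17 held 64.6 and 22.9 CPM. Within EPI, edgeR did not call the change of FGF19 (-0.14 ± 0.10 per day, adjusted p = 0.439), while limma called a fall (-0.51, adjusted p = 0.00242). The slope of FGF19 was 1.42 higher in EXMC than in EPI and 0.09 higher in TE than in EPI (adjusted p = 0.00671). The FGF19 call was lost without day 16 (edgeR adjusted p = 0.0981) and with sums of at least 10 cells (0.0987). The epiblast marker list in EXMC summed to 57.7 to 466 CPM over days 11 to 14, 442 to 826 CPM at day 16 and 124 to 370 CPM at day 17, with SOX2 and NANOG at 0 at day 11. Its part in the FGF2 and FGF19 differences was not tested.

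**Figure D5:**
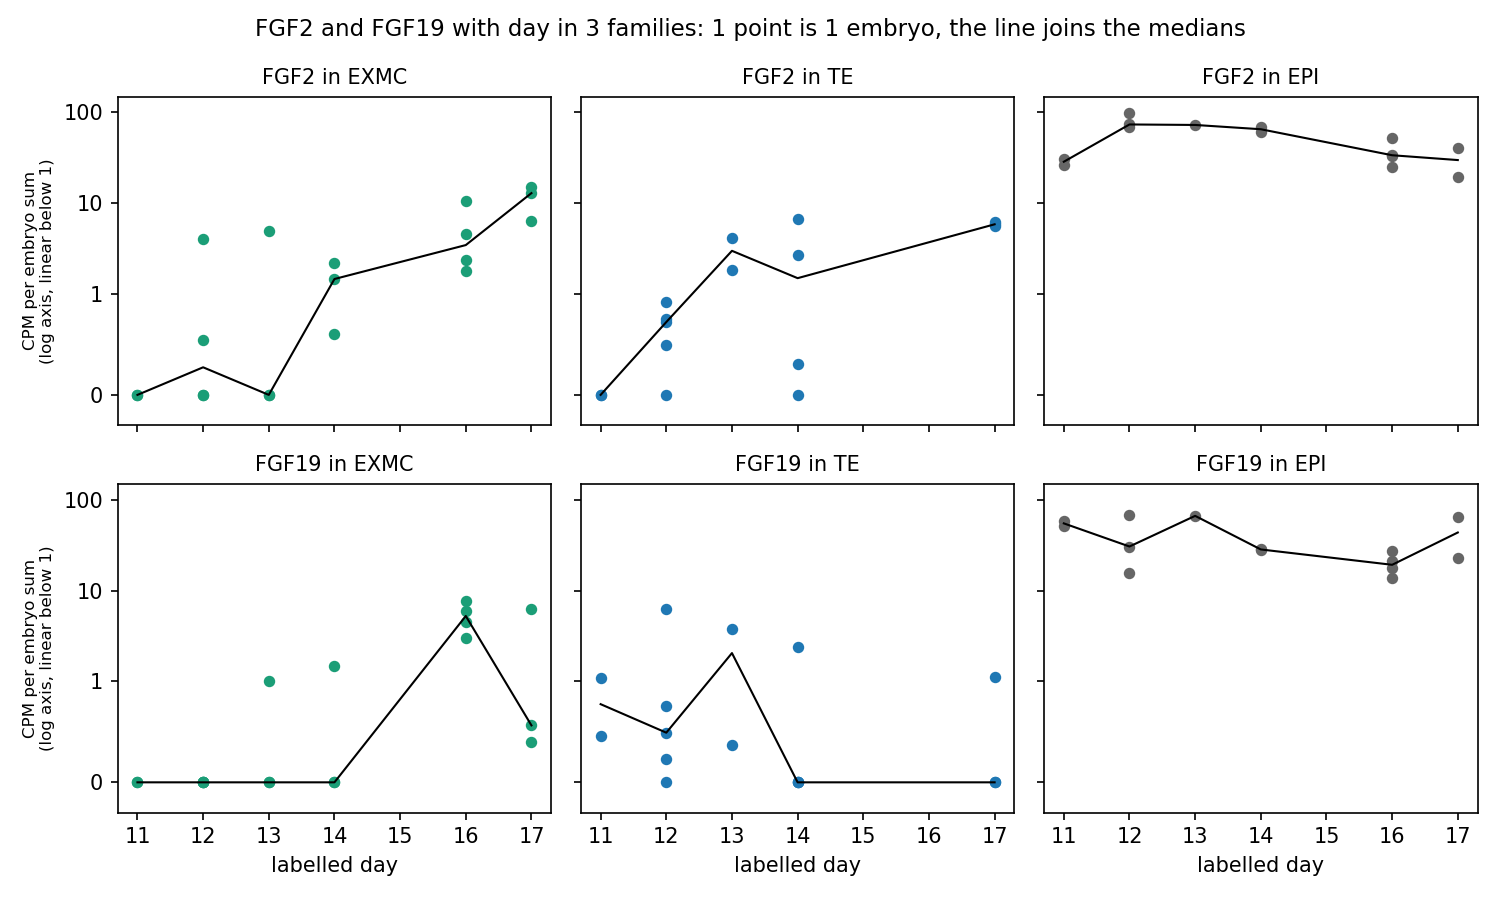
CPM of FGF2 and FGF19 by labelled day in EXMC, TE and EPI, on a log axis that is linear below 1 CPM, with 1 point per embryo and a line through the medians of the days. EXMC does not pass 5.01 CPM of FGF2 up to day 14 and is at 0 for FGF19 at days 11 and 12, while EPI stays at 13.8 CPM or above for both genes.

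The rest of both pathways was read from 6 gene lists, whose counts of calls stand beside the shares of all genes called, 1.84% in Gast, 6.24% in AM, 26.5% in VE/YE, 30.6% in EXMC and 41.8% in TE. Over the 5 families, the median log2 difference of a list ran from -0.81 to 2.12 for WNT secretion and R-spondins, -1.43 to 0.09 for WNT receptors, -1.95 to -0.87 for WNT antagonists, -0.41 to 2.30 for WNT targets, -0.15 to 2.31 for FGF receptors and -0.65 to 0.35 for FGF targets, beside -0.24 to -0.04 over all genes. WLS, which carries every lipid-bearing WNT out of the cell, was higher than EPI in each family, by 2.10 ± 0.40 in Gast, 4.95 ± 0.40 in AM, 2.27 ± 0.37 in VE/YE, 3.11 ± 0.30 in EXMC and 4.10 ± 0.32 in TE, with the largest adjusted p at 0.00168. AM sums averaged 608 CPM of WLS and EPI sums 18.0 CPM. In the secretion and R-spondin list 2 of 7 tested genes were higher in Gast, 1 in AM, 3 in VE/YE, 4 in EXMC and 2 in TE, and RSPO4 was the 1 gene lower, in TE (-3.04 ± 0.83, adjusted p = 0.00276). The R-spondin RSPO2, which amplifies WNT signals, was 4.88 ± 0.51 higher in EXMC (adjusted p = 1.90e-09), and its receptor LGR5 was 7.53 ± 0.64 higher in VE/YE (adjusted p = 1.43e-11).

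Of 14 WNT receptors tested, 1 was higher and 1 lower in AM, 3 and 1 in VE/YE, 2 and 3 in EXMC, and 1 and 6 in TE, so that the called shares in VE/YE, EXMC and TE lay near those of all genes. FZD7 was lower in TE by -2.64 ± 0.42 (adjusted p = 1.12e-05). Of 11 WNT antagonists, 3 were higher and 2 lower in VE/YE, 2 and 4 in EXMC, 1 and 6 in TE, and 1 was lower in Gast. CER1, which also binds NODAL and BMP, was 8.77 ± 0.74 higher in VE/YE (adjusted p = 2.46e-15). NOTUM, which strips the lipid from WNT, was 3.64 ± 0.50 higher in TE (adjusted p = 3.23e-06) at 528 CPM in TE, against 12.4 CPM in EPI.

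Of 12 WNT target genes, 3 were higher in Gast, 1 in AM, 4 in VE/YE, 3 in EXMC and 3 in TE, while 1 was lower in EXMC and 2 in TE. AXIN2, the usual readout of beta-catenin, was higher by 1.63 ± 0.51 in VE/YE (adjusted p = 0.0197), 1.26 ± 0.40 in EXMC (adjusted p = 0.0164) and 2.07 ± 0.42 in TE (adjusted p = 1.45e-04). LGR5 stands in this list and in the R-spondin list.

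Among 6 FGF receptor genes tested, 4 were higher in VE/YE, 2 in EXMC and 1 in TE. FGFR2, the receptor of FGF7, was higher in EXMC by 1.16 ± 0.30 (adjusted p = 0.00329). Of 14 FGF target and feedback genes, 2 were lower in AM, 3 higher and 3 lower in VE/YE and in EXMC, and 1 higher and 6 lower in TE, beside 26.5%, 30.6% and 41.8% of all genes called in VE/YE, EXMC and TE. DUSP6, a phosphatase that turns ERK off, was higher in VE/YE (2.10 ± 0.58, adjusted p = 0.00653) and EXMC (1.60 ± 0.46, adjusted p = 0.0112), and DUSP4, of the same family, was higher in VE/YE (3.77 ± 1.16, adjusted p = 0.0342). ETV1, a factor induced by ERK, was lower in AM (-2.36 ± 0.68, adjusted p = 0.0364), VE/YE (-4.64 ± 0.72, adjusted p = 2.58e-06), EXMC (-3.58 ± 0.47, adjusted p = 5.97e-08) and TE (-4.82 ± 0.52, adjusted p = 5.00e-10). With day, SFRP1, a soluble WNT binder, rose in EPI, EXMC and TE, by 1.06 ± 0.09, 1.39 ± 0.13 and 0.85 ± 0.15 per day, with adjusted p of 3.83e-04 or less. Of the FGF target list, 2 of 13 tested genes fell with day in EPI, 1 of 13 rose and 1 fell in EXMC, and 1 of 11 rose and 1 fell in TE, beside 3.81%, 11.8% and 14.9% of all genes called in either direction. ETV4 changed by -0.59 ± 0.13 per day in EPI (adjusted p = 0.0291) and -0.62 ± 0.12 in TE (adjusted p = 0.00452). EGR1, an early gene of ERK signalling, rose in TE by 0.71 ± 0.12 (adjusted p = 3.74e-04) and in EXMC by 0.27 ± 0.09 (adjusted p = 0.0356).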

How the data were processed

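Hand-picked cells of 21 embryos were sequenced at the 3' end. The deposited table holds raw counts per gene and cell, and a second deposited table gives each cell's day and annotation, per the file headers. The submitters' processing notes name STAR, an aligner, and no other tool. Version, build, read counter, cell filters and any collapsing of PCR copies: not given in the sources used here.

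All 1453 cells were kept. Since each was picked by hand, doublets were not called. Counts were summed over each embryo, and over each family of an embryo that had 5 cells or more. Genes kept by filterByExpr were scaled by TMM and tested with glmQLFit and glmQLFTest of edgeR 4.0.16 in R 4.3.3, with day as a number or the embryo as a block. The 5 family comparisons came from 1 fit of 73 sums, and the day by family test from 49 sums. Alternatives used DESeq2 1.42.0, limma 3.58.1 on the mean of log2(CPM + 1), other filters and fewer embryos. When embryos were left out of the family fit, its dispersion trend was held fixed. Code was tested on simulated data. Python 3.11.15 with numpy 2.4.6, pandas 2.3.3, scipy 1.17.1 and matplotlib 3.10.9 did the rest.

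The members, the marker and pathway lists and the tests were chosen with earlier results of these data known. Every member is accounted for, with values per embryo for those called. Up to 4 called genes per pathway list and comparison could be named, by size of change. Names under numbered identifiers came from the RefSeq table of T2T-MFA8v1.1, where 39 of 39 members were found. Its gene order was used only to find neighbouring members.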

Additional observations from a re-analysis of the deposited data

Results flagged for a closer look

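The change of FGF2 with day differed between EXMC, TE and EPI (edgeR F-test, adjusted p = 9.19e-04), as did that of FGF19 (adjusted p = 0.00671). Both results are described above, with the settings in which each call was lost.

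In 42 groups of 4 to 10 sums, Dixon's criterion set 1 sum apart from the others in 9. Its rate of about 1 in 20 groups holds for normally distributed values. CPM are skewed and often 0, and the groups share embryos, so the 9 cannot be set against that rate. In AM, WNT6 was 132 CPM at day 12 replicate 1, with the next sum at 51.7 CPM, and FGF9 was 14.8 CPM at day 12 replicate 2, with the next at 3.08 CPM. In VE/YE, FGF17 was 338 CPM at day 16 replicate 2, with the next at 158 CPM, and FGF19 was 2.22 CPM at day 16 replicate 4, with the others at 0. In all cells of day 12, FGF18 was 17.3 CPM in replicate 2, with the next at 4.45 CPM, and WNT8B was 81.7 CPM in replicate 3, with the next at 12.7 CPM.

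In EPI of day 16, WNT5B was 51.4 CPM in replicate 2, with the next at 5.85 CPM. The remaining pair were near 0, with WNT7A at 0.460 CPM in EXMC of day 16 replicate 3 and WNT4 at 0.230 CPM in TE of day 12 replicate 2, and the other sums of each group at 0.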

How the results depend on the processing

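Of the 52 calls of members, 36 held whichever single embryo was left out and 13 also held under every other setting. Those 13 were FGF17, FGF19, FGF2 and WNT11 in VE/YE, FGF2, FGF7, WNT11, WNT2 and WNT5A in EXMC, WNT7A in TE, and FGF18, WNT10B and WNT3A in all cells. The other settings gave 525 values, of which 435 kept call and direction, 89 lost the call and 1 changed direction: FGF12 in TE was 0.45 on days 16 and 17 only (adjusted p = 0.737). RLE size factors and sums of at least 3 cells lost no call.

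Leaving out 1 embryo, the members called ranged from 0 to 3 in Gast, 3 to 6 in AM, 5 to 8 in VE/YE, 11 to 12 in EXMC, 12 to 13 in TE, 2 to 3 for day by family, and for day 3 to 5 in all cells, 0 to 2 in EPI, 0 to 2 in EXMC and 2 to 7 in TE. In Gast (2 called) the count was 5 with no filter, and edgeR called 0 without day 16, with at least 10 cells and on days 11 to 14 only, with 1, 4 and 2 members at an unadjusted p under 0.05. In AM (6 called) it was 2 with developmental labels only, without day 16 and on days 11 to 14 only, and 1 with at least 10 cells and on days 16 and 17 only. In VE/YE (7 called) it was 11 with at least 3 cells and 4 with at least 10. On days 16 and 17 only it was 6 in EXMC (11 called) and 3 in TE (12 called). For day by family (2 called) it was 5 with no filter and 1 with developmental labels only.

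For day in EPI (1 called) the count was 2 with RLE, 4 with DESeq2, 3 with limma, 4 with no filter, 2 with at least 3 cells and 2 with label type as a covariate. EdgeR called 0 there with developmental labels only, with at least 10 cells and without day 17, with 5, 4 and 4 members at an unadjusted p under 0.05. For day in EXMC (2 called) it was 7 with no filter, 1 with developmental labels only, 1 with at least 10 cells, and 0 without day 16 and without day 17, with 4 and 3 members at an unadjusted p under 0.05. For day in TE (5 called) it was 2 with no filter, 1 with developmental labels only, 1 with at least 10 cells, 3 with the label covariate and 0 without day 17, with 4 at an unadjusted p under 0.05. The cause was not tested. Members counted in at least 10% of a family's cells made 86 of 273 pairs, or 50 after thinning to 20000 counts, so depth limits detection of the low genes. Settings that split the days, and those without day 17, were chosen after seeing the data. By replicate number no paired analysis was possible because the numbers only name embryos within a day. Families of 1 embryo were paired through the embryo block in the comparisons with EPI.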

Other observations

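FGF13, an intracellular FGF stored under a numbered identifier, had 6617 counts in 529 cells. Its level was 436 ± 25.7 CPM in the 3 PGC sums (SD), the highest mean of any family. Against EPI it was lower in EXMC (-2.48 ± 0.53, edgeR adjusted p = 5.87e-04) and in TE (-3.30 ± 0.58, adjusted p = 3.11e-05). Within EXMC the fitted change was 0.87 ± 0.20 per day (adjusted p = 0.0106), but the sums peaked at day 16, with at most 14.2 CPM up to day 14, 38.7, 36.7, 152 and 12.7 CPM at day 16 and 4.21, 12.2 and 5.22 CPM at day 17. FGF13 averaged 120 CPM in VE/YE, whose marker list had its highest sum and median in EXMC at day 16 too, and its part was not tested. The change of FGF13 with day differed between EXMC, TE and EPI (adjusted p = 0.00712).

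WNT9A, stored the same way, had 880 counts, 68.4% of them in 1 TE cell, and was called in no comparison.

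FGF17 in EXMC, not called over all days, was -2.81 against EPI on days 11 to 14 (adjusted p = 0.0248) and 3.61 on days 16 and 17 (adjusted p = 0.0257), and the difference between these windows was not tested. Its EXMC sums were 0.595, 8.87, 5.98 and 14.5 CPM at day 16 and 0 in all 3 of day 17. The endoderm marker list, with counts for 6 of 6 genes, summed to 113 to 2355 CPM in EXMC at day 16 and 7.84 to 70.3 CPM at day 17, and its part was not tested.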
